A study of Mus musculus with 4 samples.

Results

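The zinc-handling genes described here are 10 genes chosen by name from the 47729 genes of the count table, by a rule that holds no measured value, with earlier results of these data known: the metallothioneins Mt1 and Mt2, their regulator Mtf1, the zinc exporters Slc30a1 and Slc30a5, and the zinc importers Slc39a1, Slc39a6, Slc39a8, Slc39a10 and Slc39a14. They were measured by RNA-seq in induced regulatory T (iTreg) cells, which are naïve CD4+ T cells of C57BL/6 mice turned in culture into suppressive, Foxp3-expressing cells. The labels name spleen as the tissue, and both groups received TGF-β, IL-2, anti-IL-4 and anti-IFN-γ on T cell receptor stimulation through CD3 and CD28. For 4 days 2 cultures received 50 µM FeSO4, a ferrous iron salt, and 2 received PBS (Mock), so the comparison asks what added iron does to the zinc genes of these cells. The methods describe wild-type cells and pairs from independent experiments, but the labels tie no library to an experiment. A p-value here sets the difference between the groups against the spread within each group of 2 libraries, estimated with help from all tested genes. It covers these 4 libraries only. All 10 genes passed the filter on low counts and were tested.

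Zinc is kept in a narrow range inside cells. Metallothioneins are small cysteine-rich proteins that bind zinc and copper. MTF1 is a transcription factor that is activated by free zinc and binds metal response elements, short motifs before the metallothionein genes and before Slc30a1. Proteins of the ZnT (SLC30) family move zinc out of the cytosol, across the plasma membrane or into vesicles, and proteins of the ZIP (SLC39) family move it into the cytosol. ZIP8 and ZIP14, encoded by Slc39a8 and Slc39a14, also carry iron and manganese, and in T cells zinc is known to take part in signalling from the T cell receptor.

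Mt1, Mt2 and Slc30a1 are the textbook targets of MTF1 among these genes, so the 250 bases before their starts are shown, from RefSeq on GRCm38.p6, written 5′ to 3′ on the gene's strand. Capitals mark the metal response element core, searched as TGCACNC or TGCGCNC on both strands, so that a core on the other strand appears as its reverse complement.
Mt1, chr8:94178839-94179088, plus strand: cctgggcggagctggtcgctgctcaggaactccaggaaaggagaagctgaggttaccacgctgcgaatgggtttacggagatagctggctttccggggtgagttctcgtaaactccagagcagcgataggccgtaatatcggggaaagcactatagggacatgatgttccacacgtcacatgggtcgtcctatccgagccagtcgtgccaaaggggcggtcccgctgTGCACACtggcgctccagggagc
Mt2, chr8:94172368-94172617, plus strand: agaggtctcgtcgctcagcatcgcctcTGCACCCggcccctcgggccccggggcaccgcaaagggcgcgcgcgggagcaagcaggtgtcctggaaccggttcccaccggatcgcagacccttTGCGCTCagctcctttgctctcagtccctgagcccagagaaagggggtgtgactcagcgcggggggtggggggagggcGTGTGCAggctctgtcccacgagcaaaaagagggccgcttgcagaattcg
Slc30a1, chr1:191906531-191906780, plus strand: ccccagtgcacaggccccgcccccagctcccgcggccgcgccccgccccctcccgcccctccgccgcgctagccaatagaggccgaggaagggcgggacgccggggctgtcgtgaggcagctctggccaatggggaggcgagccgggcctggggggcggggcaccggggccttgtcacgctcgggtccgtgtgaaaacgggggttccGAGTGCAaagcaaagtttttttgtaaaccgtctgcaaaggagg

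The starts that RefSeq's table gives Mt1 and Slc30a1 lie inside the annotated spans of these genes, so their windows and marked cores overlap the spans, as do the windows of Slc30a5, Slc39a1, Slc39a8 and the first start of Slc39a10, and the starts most used in these cells were not determined. In these windows Mt1 held 1 core, at bases -23 to -17 from the table's start. Mt2 held 3 cores, at -223 to -217, at -128 to -122 and, on the other strand, at -50 to -44. Slc30a1 held 1 core, on the other strand at -43 to -37. The 50 bases after the start, not printed, held 2 further cores in Mt1, 1 in Mt2 and 1 in Slc30a1. The promoter table matched 8 of the 10 genes with 10 starts and had no start for Slc39a6 and Slc39a14. Of these 10 windows 5 held the core, those not yet named being the windows of Slc30a5 and of the second start of Slc39a8. The core was found in 21.4% of all 32851 windows. The core of the NRF2 element (TGACNNNGC, both strands) lay in 4 of the 10 windows, those of Mt2, Slc30a1, Slc39a1 and the first start of Slc39a8, and in 10.2% of all windows. The HIF core (ACGTG, both strands, 2 overlapping matches where CACGTG stands) lay in 4, those of Mt1, Slc30a5, Slc39a1 and the second start of Slc39a8, and in 16.6% of all. No window of Mtf1 or Slc39a10 held any of the 3 motifs. A match describes letters only, and no binding was measured.

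**Figure D1:**
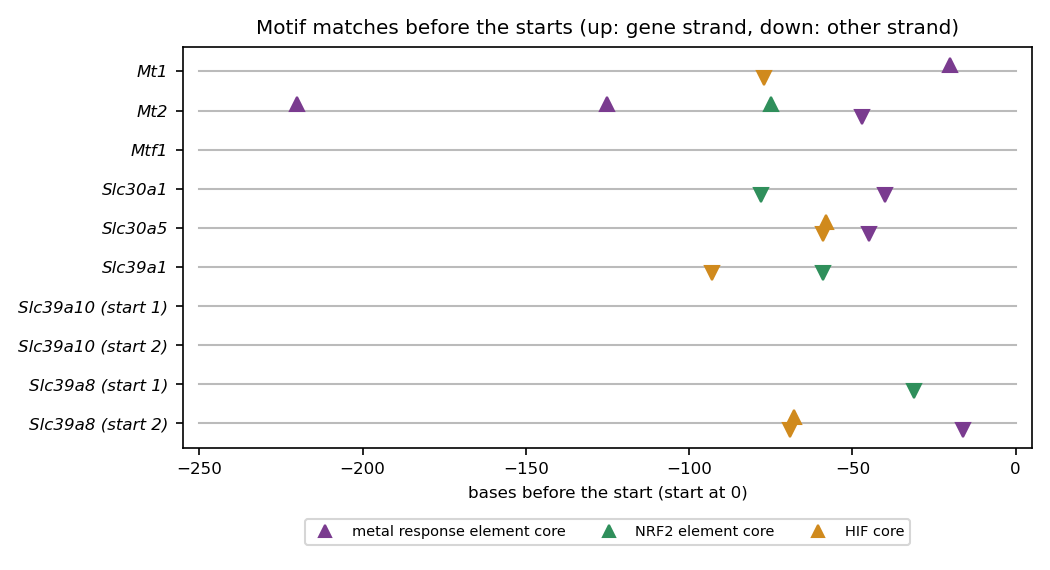
Positions of the 3 motif cores in the 250 bases before 10 starts of 8 genes, plotted by distance in bases from the start, with upward triangles for the gene's strand and downward triangles for the other. Mt2 holds 3 metal response element cores, Mt1, Slc30a1, Slc30a5 and the second start of Slc39a8 hold 1 each, and Mtf1 and both starts of Slc39a10 hold no match.

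The 4 libraries held 35183187 to 40859178 reads in genes, and the filter kept 13732 genes. T cell markers were at high levels, with Cd3e at 304 to 346 CPM (the count relative to the library's total after TMM scaling) and Cd4 at 606 to 683 CPM. For all 4 T cell markers the FeSO4 libraries were the upper pair, like those of Mt1 and Slc39a6, and 2 were called, Cd3g (log2 fold change 0.50, held under 13 of 13 alternatives) and Cd28 (0.21, held under 3 of 13). Foxp3, the defining factor of the iTreg label, was at 587 and 693 CPM in Mock and at 376 and 472 CPM in FeSO4. It was called lower, also under 12 of 13 alternatives, the exception being no filter on low counts. Of its exon bases 21.7% are shared with other genes, on the same and on the opposite strand. Ikzf4 was called lower too (log2 fold change -0.65), while Il2ra and Ctla4 were not called. Markers of other cells differed between libraries. Lyz2, a myeloid marker, was at 4.04 CPM in Mock 1, 0.191 CPM in Mock 2 and 0 counts in both FeSO4 libraries, and the B cell marker Igkc was at 3.84 CPM in Mock 1 and at most 0.216 CPM elsewhere. Higher in FeSO4 were Ighm (165 and 159 against 245 and 275 CPM), Hba-a1 (24.5 and 19.6 against 37.5 and 32.5 CPM) and Cst3 (93.5 and 87.1 against 115 and 118 CPM). The defining markers Ms4a1, Csf1r, Itgam and Cd14 had at most 7 counts in any library, the B cell marker Cd79a had 69 to 107 and the myeloid marker Adgre1 had 8 to 29, with overlapping groups for both and neither called, and Ncr1 and Klrb1c had 0. The myeloid list of 6 markers summed to 88.0 to 98.0 CPM in Mock and 116 to 118 CPM in FeSO4, nearly all of it Cst3. Their part in the results below was not tested, and in bulk RNA a change in the number of cells of a type cannot be told apart from a change in RNA per cell.

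Among the 10 zinc genes, Slc39a6 and Mt1 were higher in FeSO4, Slc39a14 was lower, and 7 did not pass the test (edgeR's quasi-likelihood test, adjusted p under 0.05 over all 13732 genes). Of all genes tested 10.9% were called higher and 9.17% lower. Both FeSO4 libraries lay above both Mock libraries for 3 of the 10 genes (Mt1, Mt2 and Slc39a6) and below them for 2 (Slc39a8 and Slc39a14). Over all genes these shares were 30.1% and 29.4%. The median log2 fold change of the 10 was 0.095, beside -0.00052 over all genes. By the study's threshold, an unadjusted p under 0.05 with a log2 change of at least 0.5 in size, 1 of the 10 (Slc39a6) was higher and 0 were lower, beside 4.67% and 5.73% of all genes.

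**Figure D2:**
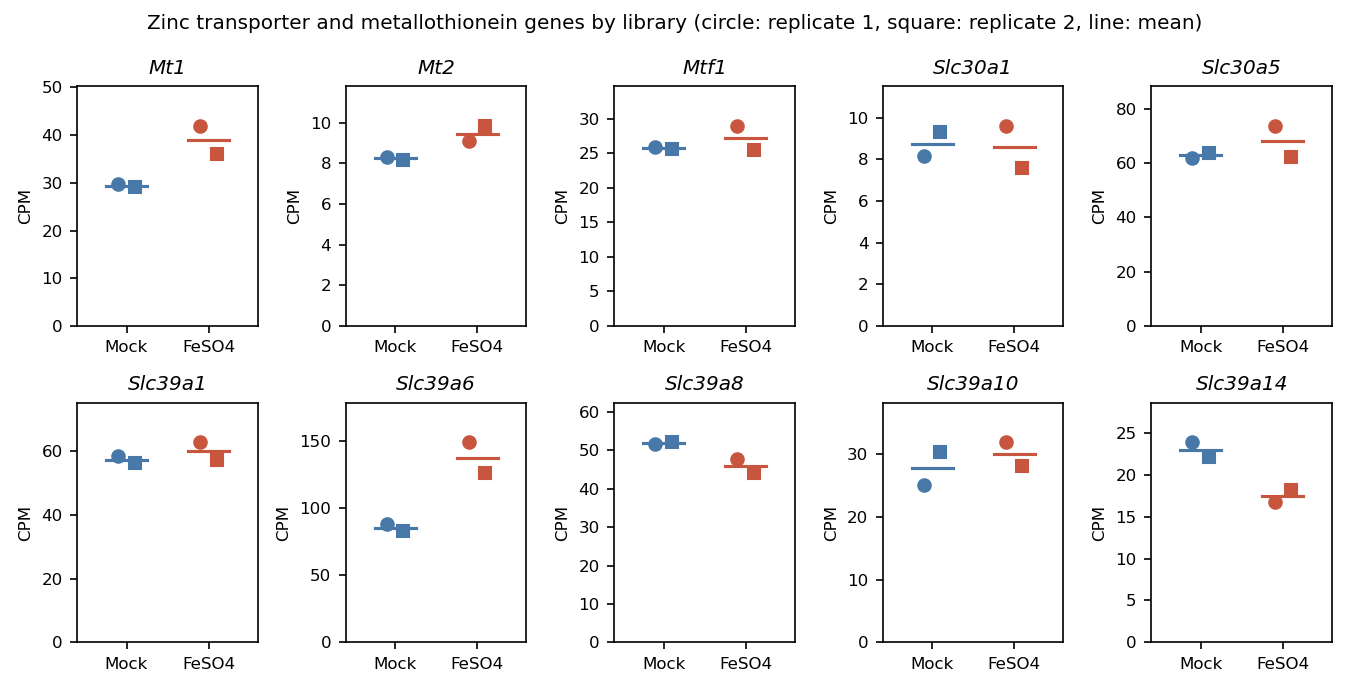
CPM, scaled by TMM, of the 10 zinc genes in the 2 Mock (blue) and 2 FeSO4 (red) libraries, each panel from 0, with circles for replicate 1, squares for replicate 2 and a line at the group mean. The groups stand clear of each other for Mt1, Mt2, Slc39a6, Slc39a8 and Slc39a14 and overlap in the other 5 panels.

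The metallothionein genes Mt1 and Mt2 lie side by side on mouse chromosome 8. Mt1 (ENSMUSG00000031765, chr8:94178883-94180327, GRCm38.p6) stood at 29.6 and 29.1 CPM in Mock 1 and Mock 2 and at 41.9 and 36.0 CPM in FeSO4 1 and FeSO4 2, from 1203 to 1436 counts a library. Both FeSO4 libraries were above both Mock libraries, and FeSO4 1 was the highest. The means were 29.4 ± 0.354 and 38.9 ± 4.21 CPM (SD, n = 2 each), a 1.32-fold rise with a log2 fold change of 0.40 ± 0.10 (SE) and an edgeR adjusted p of 0.00786. The call did not hold without FeSO4 1, where the log2 fold change was 0.29 with an edgeR adjusted p of 0.135. Lyz2 moved the other way from Mt1, while Ighm, Hba-a1 and Cst3 moved with it and with Slc39a6.

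Mt2 (ENSMUSG00000031762, chr8:94172618-94173567) was at 8.31 and 8.18 CPM in Mock and at 9.08 and 9.83 CPM in FeSO4, from 311 to 364 counts. The FeSO4 libraries were again the 2 upper ones, by a smaller margin than for Mt1. The log2 fold change was 0.20 ± 0.16 with an edgeR adjusted p of 0.417, and Mt2 was not called under any of 13 alternatives. Of the reads of both genes, Mt1 took 78.1% in Mock 1 (95% Wilson interval 76.0 to 80.1%), 78.1% in Mock 2 (76.0 to 80.1%), 82.2% in FeSO4 1 (80.3 to 83.9%) and 78.5% in FeSO4 2 (76.5 to 80.4%). The share was highest in FeSO4 1, whose interval was above those of both Mock libraries and overlapped that of FeSO4 2 slightly. The intervals cover counting error only. The difference between the responses of Mt1 and Mt2 was not tested. The longest run of identical bases between transcripts of the 2 genes was 20 bases. Of the other metallothioneins, Mt3, known from brain, had 7 to 14 counts a library, and Mt4, known from squamous epithelium, had 0. Neither was tested, and both were named after their counts were seen.

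Mtf1 (ENSMUSG00000028890, chr4:124802549-124849800), the zinc sensor, was at 25.9 and 25.6 CPM in Mock and at 29.0 and 25.5 CPM in FeSO4. FeSO4 1 was above the rest and FeSO4 2 was level with Mock. Its log2 fold change was 0.08 ± 0.10 with an edgeR adjusted p of 0.640, and 3.81% of its exon bases are shared with a gene on the opposite strand. The list of MTF1 and genes it is known to act on had 7 members, all tested. In it 1 (Mt1) was higher and 0 were lower, beside 10.9% and 9.17% of all genes. The median log2 fold change was 0.11. The list was not split by whether MTF1 raises or lowers a gene, so this median gives no reading of MTF1 activity. Gclc, which encodes a subunit of the enzyme that starts glutathione synthesis, had a log2 fold change of -0.06 (edgeR adjusted p = 0.647), and Selenow, a selenoprotein gene, of 0.15 (edgeR adjusted p = 0.106). The remaining members are Mt2, Slc30a1 and Slc39a10.

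Slc30a1 (ENSMUSG00000037434, chr1:191906697-191913248) encodes ZnT1, the exporter of the plasma membrane. It was at 8.16 and 9.33 CPM in Mock and at 9.60 and 7.56 CPM in FeSO4. The FeSO4 libraries held both its highest and its lowest level. The log2 fold change was -0.03 ± 0.17 with an edgeR adjusted p of 0.926, and 8.92% of its exon bases are shared with a gene on the opposite strand. Of the genes with a metal response element core before a start, Mt1 was called, and Mt2, Slc30a1, Slc30a5 and Slc39a8 were not. The difference was not tested. Slc30a5 (ENSMUSG00000021629, chr13:100802645-100833480) encodes ZnT5, which loads zinc into the early secretory pathway. It was at 61.8 and 63.7 CPM in Mock and at 73.6 and 62.2 CPM in FeSO4, so that FeSO4 1 alone stood above the other libraries. Its log2 fold change was 0.11 ± 0.09 with an edgeR adjusted p of 0.396.

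Of the 10 genes of the ZnT family 7 were tested, with a median log2 fold change of -0.01. Of these 1 was higher and 0 were lower, beside 10.9% and 9.17% of all genes. The ZnT counts were the same at an unadjusted p under 0.05, which 17.1% of all genes passed as higher and 15.2% as lower. They were also the same by DESeq2 (1323 higher and 1098 lower over all genes) and by limma-voom (1450 and 1193). The gene that rose was Slc30a4, which encodes a vesicular exporter known for supplying zinc to milk. It was at 72.5 and 85.1 CPM in Mock and at 111 and 103 CPM in FeSO4, a log2 fold change of 0.45 ± 0.08 with an edgeR adjusted p of 0.00112. Both FeSO4 libraries were above both Mock libraries. Slc30a6, whose product pairs with ZnT5, Slc30a7 and Slc30a9 had log2 fold changes of -0.07, -0.01 and -0.07, none of them called. Outside the family, Tmem163, which encodes a vesicle protein that binds and carries zinc, was at 4.68 and 5.95 CPM in Mock and at 9.66 and 9.59 CPM in FeSO4, a log2 fold change of 0.85 ± 0.18 with an edgeR adjusted p of 0.0033.

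Slc39a6 (ENSMUSG00000024270, chr18:24579881-24603817) encodes ZIP6, an importer of the plasma membrane, and had the largest log2 fold change in size among the 10 genes. It was at 88.1 and 82.9 CPM in Mock and at 149 and 126 CPM in FeSO4, from 3465 to 5100 counts a library. The groups were far apart, and the lower FeSO4 library was above the higher Mock library by more than the spread within either group. The means were 85.5 ± 3.71 and 137 ± 16.2 CPM (SD, n = 2 each), a 1.61-fold rise with a log2 fold change of 0.68 ± 0.08 and an edgeR adjusted p of 1.87e-05. It was called higher under all 13 alternatives, with log2 fold changes from 0.56 to 0.80.

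Slc39a10 (ENSMUSG00000025986, chr1:46807544-46925776) encodes ZIP10, the closest relative of ZIP6 and a known partner of it. It was at 25.04 and 30.35 CPM in Mock and at 31.8 and 28.1 CPM in FeSO4, and the groups overlapped. Its log2 fold change was 0.11 ± 0.11 with an edgeR adjusted p of 0.535. For each read of Slc39a10 there were 3.52 and 2.73 reads of Slc39a6 in Mock and 4.68 and 4.48 in FeSO4. Slc39a1 (ENSMUSG00000052310, chr3:90248190-90253613), which encodes the widely expressed importer ZIP1, was at 58.4 and 56.2 CPM in Mock and at 62.7 and 57.3 CPM in FeSO4. Here too the groups overlapped, with a log2 fold change of 0.07 ± 0.08 and an edgeR adjusted p of 0.616. The log2 fold change of Slc39a1 was 0.0042 without FeSO4 1 and 0.13 without FeSO4 2.

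Of the importers that also carry iron and manganese, Slc39a14 was called lower in FeSO4 and Slc39a8 was not called. Slc39a14 (ENSMUSG00000022094, chr14:70303467-70351452), which encodes ZIP14, was at 23.8 and 22.0 CPM in Mock and at 16.8 and 18.1 CPM in FeSO4. Both FeSO4 libraries were below both Mock libraries. The means were 22.9 ± 1.26 and 17.4 ± 0.971 CPM (SD, n = 2 each), with a log2 fold change of -0.39 ± 0.11 and an edgeR adjusted p of 0.0215. The call did not hold without Mock 1 (log2 fold change -0.34, edgeR adjusted p = 0.103) or without FeSO4 1 (-0.34, edgeR adjusted p = 0.156). Of the myeloid markers, Lyz2 was lower in FeSO4 like Slc39a14, Cst3 was higher and Adgre1 was not called. Lyz2 had 164 counts in Mock 1 and 8 in Mock 2, while Slc39a14 was similar in both. Igkc stood apart in Mock 1 only. The part of these markers in the change of Slc39a14 was not tested. Slc39a8 (ENSMUSG00000053897, chr3:135816882-135888572), which encodes ZIP8, was at 51.7 and 52.0 CPM in Mock and at 47.8 and 44.1 CPM in FeSO4. Its libraries were separated in the same direction, with a log2 fold change of -0.17 ± 0.08 and an edgeR adjusted p of 0.158, so the difference was not past the threshold. The log2 fold change of Slc39a8 was -0.23 without FeSO4 1 and -0.11 without FeSO4 2. Of the list of 10 iron and manganese carriers 5 were tested, with a median log2 fold change of -0.17. Among them 0 were higher and 1 (Slc39a14) was lower, beside 10.9% and 9.17% of all genes. Slc11a2, which encodes the iron importer DMT1, was at 38.0 and 39.4 CPM in Mock and at 34.7 and 29.2 CPM in FeSO4. Its log2 fold change was -0.28 with an edgeR adjusted p of 0.057, and it was called under 5 of 13 alternatives. Of its exon bases 6.33% are shared with a gene on the opposite strand. Without FeSO4 1 its log2 fold change was -0.40 (edgeR adjusted p = 0.0295) and without FeSO4 2 it was -0.15 (edgeR adjusted p = 0.475). Atp2c1, which encodes a manganese and calcium pump of the Golgi, had a log2 fold change of 0.03 with overlapping groups. Steap3, which encodes a ferric reductase and was named after its values were seen, was at 5.25 and 5.38 CPM in Mock and at 7.50 and 6.19 CPM in FeSO4. Its log2 fold change was 0.36 with an edgeR adjusted p of 0.216, and it was 0.22 without FeSO4 1 and 0.50 without FeSO4 2.

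Of the 14 genes of the ZIP family 12 were tested, with a median log2 fold change of 0.02. Of these 3 were higher (Slc39a2, Slc39a4 and Slc39a6), 1 was lower (Slc39a14) and 8 were not called. By the same call 10.9% of all genes were higher and 9.17% lower. Slc39a4, which encodes the importer of dietary zinc in the intestine, was at 38.8 and 33.1 CPM in Mock and at 49.4 and 47.8 CPM in FeSO4, a log2 fold change of 0.44 ± 0.09 with an edgeR adjusted p of 0.00341 (0.0638 without the filter on low counts). Slc39a2 had few reads, 44 to 111 counts a library. It was at 1.23 and 1.05 CPM in Mock and at 2.977 and 2.999 CPM in FeSO4, a log2 fold change of 1.39 ± 0.32 with an edgeR adjusted p of 0.00595. In both genes the FeSO4 libraries were the 2 upper ones. Slc39a3 and Slc39a9 had log2 fold changes of -0.22 (edgeR adjusted p = 0.0921) and -0.19 (edgeR adjusted p = 0.103), with both FeSO4 libraries below both Mock libraries. Both passed an unadjusted edgeR p under 0.05 (0.0235 and 0.0274), as 15.2% of all genes did as lower. Slc39a3 was called under 3 of 13 alternatives, among them the replicate block (edgeR adjusted p = 0.0394), and Slc39a9 under 1. The log2 fold change of Slc39a3 was -0.13 without Mock 1 and -0.31 without Mock 2. Slc39a7, named after its values were seen, had 50 to 68 counts a library, and 80.1% of its exon bases are shared with an overlapping gene model on the same strand, so its level is uncertain.

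**Figure D3:**
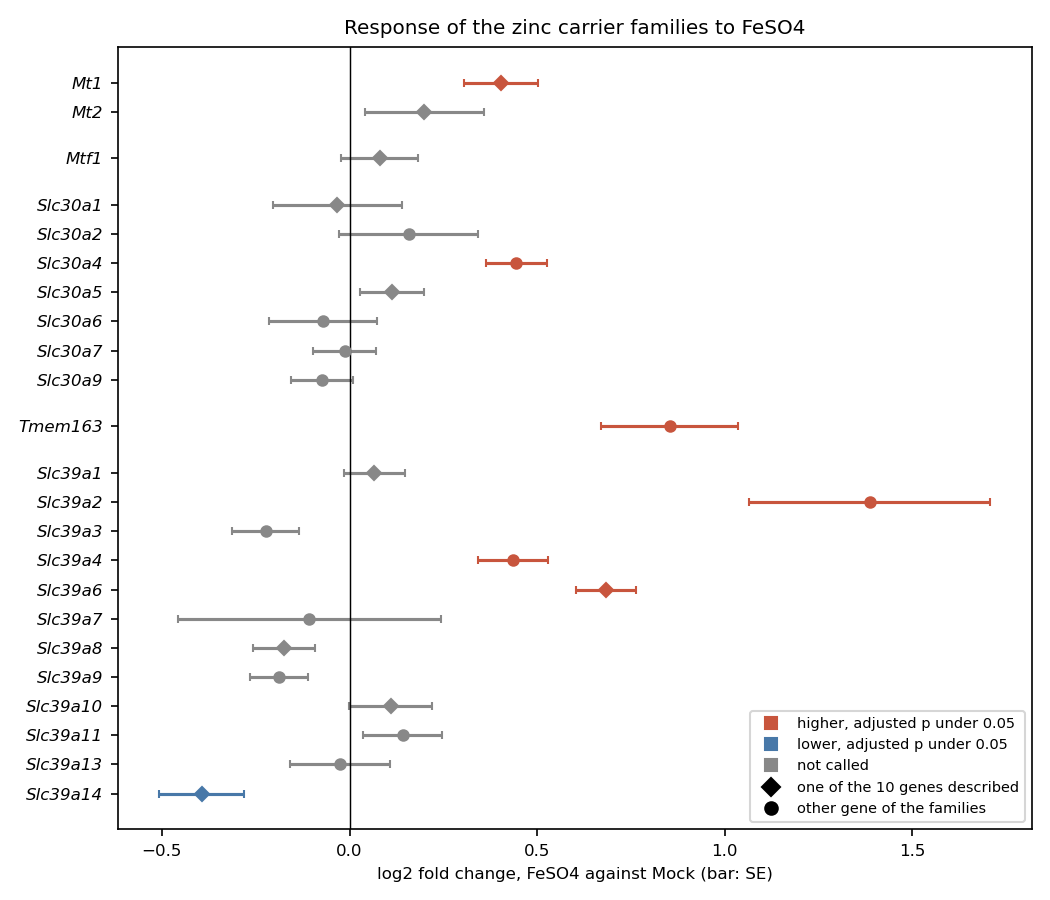
Log2 fold change of FeSO4 against Mock with its standard error for the tested metallothioneins, Mtf1, ZnT genes, Tmem163 and ZIP genes, with diamonds for the 10 genes described and circles for the rest of the families. Red marks the 6 genes called higher, from Mt1 at 0.40 to Slc39a2 at 1.39, blue marks Slc39a14 at -0.39, and grey genes were not called.

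Copper, which metallothioneins also bind, was read from a list of 11 genes. Of these 9 were tested, with a median log2 fold change of 0.04. In this list 2 were higher and 0 were lower, beside 10.9% and 9.17% of all genes. Slc31a1, which encodes the copper importer CTR1, was at 26.7 and 26.5 CPM in Mock and at 34.0 and 34.6 CPM in FeSO4, a log2 fold change of 0.37 ± 0.09 with an edgeR adjusted p of 0.0109. The call was lost without FeSO4 2 (0.36, edgeR adjusted p = 0.0601) and without the filter on low counts (0.37, edgeR adjusted p = 0.0571). Sco1, which encodes a copper chaperone of cytochrome c oxidase, had a log2 fold change of 0.40 ± 0.13 with an edgeR adjusted p of 0.0416, a call held under 5 of 13 alternatives.

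Levels of different genes were compared as CPM per kilobase of exon, over the 4 libraries. Mt1 had the highest level per length, with a mean of 45.4 and a range of 38.7 to 55.7, above every library of every other gene of the families. Slc39a6 followed at 27.4, with a range of 20.3 to 36.6 that overlapped those of Slc39a1 at 24.8, Slc30a5 at 20.6 and Slc39a4 at 18.7. Every library of Slc39a1 was above every library of the genes after it, which were Slc30a5 at 20.6, Slc39a4 at 18.7, Slc30a4 at 17.0 and Mt2 at 15.9, each overlapping the next. Slc39a8 was at 6.38 and Slc39a10 at 4.84. At the lower end were Mtf1 at 3.19, Slc39a14 at 1.91 and Slc30a1 at 1.65, and the last 2 overlapped each other. By exon length over all 4 libraries, Mt1 and Slc39a6 had the highest means of the 10, and Slc39a14 had the lowest after Slc30a1. These means include the FeSO4 libraries, in which Mt1 and Slc39a6 were higher. In Mock alone the mean of Slc39a6 was 21.0, below Slc39a1 at 24.2, and Mt1 was at 39.0. With the longest transcript as the length, Slc39a8 moved to 11.6 and Slc39a14 to 3.95, which was above Mtf1 at 3.47.

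**Figure D4:**
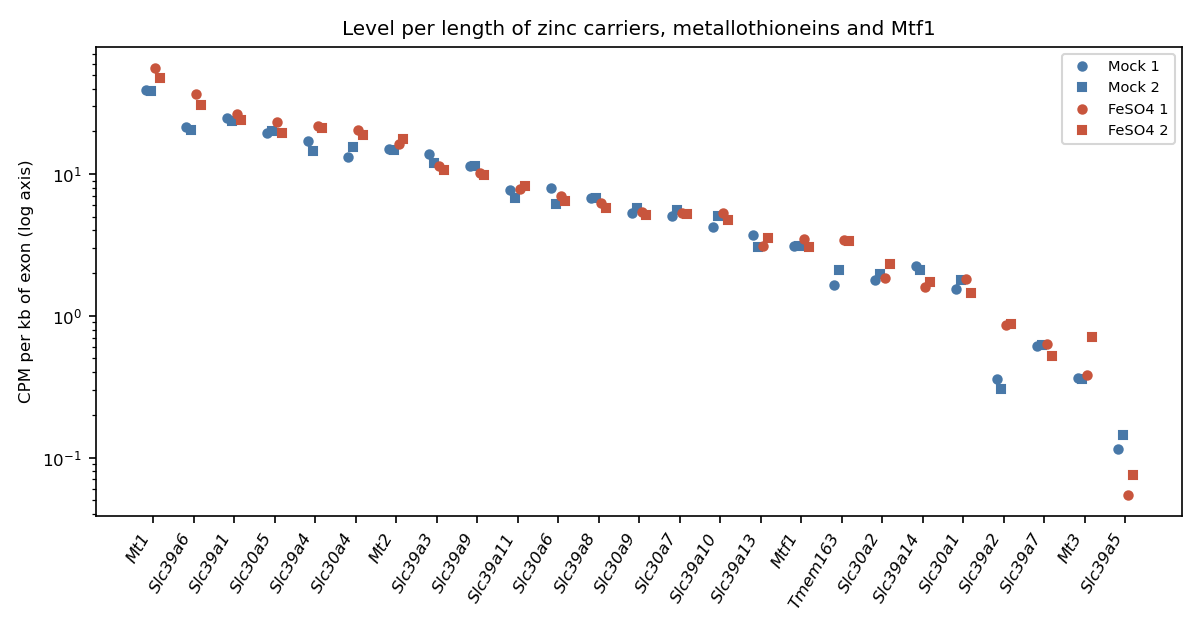
Level of each zinc carrier, metallothionein and Mtf1 in CPM per kilobase of exon on a log axis, with 1 point for each Mock (blue) and FeSO4 (red) library, ordered by the mean. Mt1 is highest at a mean of 45.4 and Slc30a1, at 1.65, is the lowest of the 10 genes described.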

How the data were processed

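RNA-seq of 4 libraries (2 Mock, 2 FeSO4) was deposited as raw read counts per gene. The methods name mm9 and STAR, while the submitters' processing notes list mm10, Trim Galore 0.6.7, STAR 2.7.9a and featureCounts. The annotation and strand setting are not given in the sources used here, so reads of overlapping genes on opposite strands may not be told apart. The rows of unassigned reads (multi-mapping reads, for example, equal to 4.27 to 4.62% of reads) stayed out of library sizes. Symbols matched 32799 gene IDs, and the 14930 without one held 0.755% of counts. Gene positions and promoters are from RefSeq on GRCm38.p6. Exon lengths and overlaps are from GENCODE M1 on NCBIM37, and CPM per kilobase was computed from them.

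Genes were filtered (filterByExpr, minimum count 10), scaled by TMM and tested with edgeR 4.0.16 quasi-likelihood (R 4.3.3), adjusted by Benjamini-Hochberg at 0.05. The SE is the log2 fold change over the root of F. The procedure was also run on simulated data, with no result reported here. Alternatives were DESeq2 1.42.0, limma-voom 3.58.1, 3 other scalings, 2 other filters, the replicate block, each library left out, the study's threshold and, added after seeing the data, edgeR's legacy fit.

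The 10 genes and all lists were chosen with earlier results of these data known. The 10 genes and every called gene of the metal lists were named, and uncalled list genes averaging at least 10 CPM could be. Genes outside this rule are marked as such or are cell type markers. Depth gives a floor of 3 counts, or 0.0717 to 0.0876 CPM. Some marker genes of other cell types are not reported here.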

Additional observations from a re-analysis of the deposited data

How the results depend on the processing

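The calls of Mt1 and Slc39a14 depended on single libraries and on the filter. With each library left out in turn, fewer genes of all those tested were called, both higher and lower, than in the fit reported. Of the 10 genes, 2 were higher in the fit reported, 1 without the filter, down to 1 count (22164 in place of 13732 genes, where 524 were called higher and 304 lower in all) and 1 by the study's threshold, and 1 to 2 without each library in turn. The number lower was 1, against 2 with library size as the only scaling, 0 without the filter, 0 by the study's threshold and 0 to 1 without each library. Lower ZIP genes numbered 1, against 4 with library size only, 0 without the filter, 0 by the study's threshold and 0 to 2 without each library. Higher ZIP genes numbered 3, against 2 without the filter and 2 by the study's threshold. Higher ZnT genes numbered 1, against 0 without the filter and 0 by the study's threshold. With library size only, which moved the median of all genes to -0.07 and called 980 higher and 1810 lower (1491 and 1259 in the fit reported), Slc39a3, Slc39a8 and Slc39a9 joined Slc39a14.

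Without each library in turn, log2 fold changes ran from -0.0079 (FeSO4 1 left out) to 0.17 for Mtf1, from -0.0083 (FeSO4 1) to 0.23 for Slc30a5, from -0.028 (Mock 1) to 0.26 for Slc39a10, from -0.21 to 0.14 for Slc30a1 (above 0 without Mock 2 or FeSO4 2), from -0.16 to 0.039 for Gclc (above 0 without Mock 1 or FeSO4 2) and from -0.079 (FeSO4 1) to 0.15 for Atp2c1, which was at -0.033 with library size only, and none was called in these fits. The cause was not tested. Leaving out a library makes the lone one of its group vary like the other group.

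With the replicate block 2 ZIP genes were lower, Slc39a3 being added (log2 fold change -0.22, edgeR adjusted p = 0.0394), and Slc11a2 and Sod1 were called too (-0.28 and 0.17), as they were under 5 and 2 of the 13 alternatives. Over all genes 1847 were higher and 1580 lower. Deviations of same-numbered libraries correlated with r = 0.029 over all 13732 genes and 0.22 over the 8522 averaging at least 10 CPM. The labels give only a shared number, and the methods' independent pairs are tied to none, so the pairing is unsettled. With 2 libraries a group, 0.40 on the log2 scale (Mt1) is near the median size of all calls, 0.388.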
